A study of Mus musculus with 3 samples.

Results

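Neutrophils enter a skin wound along gradients of CXC chemokines, small secreted proteins. Those that attract neutrophils carry a Glu-Leu-Arg motif just before the paired cysteines of the family. In the mouse *Cxcl1*, *Cxcl2*, *Cxcl3* and *Cxcl5* encode ligands of this type, and *Cxcr2* encodes the receptor on neutrophils that binds them. Macrophages, neutrophils, fibroblasts and epithelial cells can all make the ligands, usually after interleukin-1 or tumour necrosis factor has activated NF-kappaB, and the messages decay quickly. The 5 genes were taken by symbol from the 32285 genes of the count tables. They had been chosen with their pattern in these sections known, so the levels described here carry no test.

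The tissue was wounded skin of C57BL/6J mice, taken fresh frozen on Days 3, 7, and 14 after injury. The study's methods describe adult male mice with several full-thickness punch wounds in the shaved back, and the labels name no transgene or treatment and do not tie a section to an animal. All 3 sections were wounded and no unwounded skin is compared here. Gene expression was read on Visium slides, which hold a grid of barcoded spots that each catch RNA from several cells, and each molecule was counted once as a unique molecular identifier (UMI). There was 1 section per day, so day, animal, section and library cannot be told apart, and the intervals below cover counting error only.

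Each slide carried 4992 spots, and all 4992 barcodes occurred on the 3 slides. The deposited positions marked 664, 549, and 697 spots as lying under tissue on Days 3, 7, and 14. Those spots held 1772259, 4442962, and 4611723 UMIs. The spots outside the mark held 1703210, 6457066, and 4715272 UMIs, between 49.0% and 59.2% of each slide, so both areas are described. The study's appendix shows selected spots that mark a region of interest. Spots outside the mark are therefore not taken as free of tissue. On Day 3 skeletal muscle markers made up a 2.12-fold higher share of the UMIs there than in marked spots. The Day 3 slide was the shallowest, with a median of 1513 UMIs per marked spot and 91 per spot outside. Fewer cells of a type and less RNA per cell cannot be told apart in these spots. UMIs were not divided by transcript length, and levels are therefore compared between days and places for 1 gene at a time.

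In the GENCODE M21 annotation of GRCm38, the build of the count tables (mm10), the 4 ligand genes lay on the plus strand of chromosome 5 within 147 kb. *Cxcl5* occupied chr5:90759360-90761624, *Cxcl3* chr5:90786103-90789600, *Cxcl1* chr5:90891241-90893115 and *Cxcl2* chr5:90903871-90905938. *Cxcr2* occupied chr1:74153989-74161246 on the plus strand. Each is a protein-coding gene. A further 3 CXC ligand genes, *Ppbp*, *Pf4* and *Cxcl15*, lay between *Cxcl5* and *Cxcl1*. RefSeq promoter windows, which ran from 250 bases before a gene start to 50 after it, were matched for 4 of the 5 genes, and *Cxcl5* had no entry. In the 250 bases before the start, the windows of *Cxcl1*, *Cxcl2* and *Cxcl3* shared 2 runs of 8 or more letters, and the stretch that holds both is shown here because it is what these ligand genes have in common upstream. Capitals mark the shared runs, GGGAATTTCCC, which has the letters of an NF-kappaB motif, and ATAAAAGG, which has those of a TATA box (GRCm38.p6, plus strand, chr5:90891159-90891224, chr5:90903787-90903855 and chr5:90786013-90786085 in the order printed).
Cxcl1: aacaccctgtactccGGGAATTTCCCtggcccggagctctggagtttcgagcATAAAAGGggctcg
Cxcl2: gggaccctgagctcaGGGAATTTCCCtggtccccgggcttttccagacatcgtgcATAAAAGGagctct
Cxcl3: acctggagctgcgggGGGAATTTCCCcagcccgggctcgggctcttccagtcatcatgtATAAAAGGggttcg

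The first run began 71, 97, and 73 bases before the RefSeq start of *Cxcl1*, *Cxcl2* and *Cxcl3*, and the second 34, 57, and 29 bases before it. Searched on both strands, GGGAATTTCCC occurred in 14 of 32851 promoter windows (0.0426%) and ATAAAAGG in 577 (1.76%). Both occurred together in 3 windows, those printed. The letters were taken from these windows, so the shares describe how rare they are and test nothing. The *Cxcr2* window held neither run of letters. *Cxcl2* and *Cxcl3* also resembled each other in their transcripts, with a longest identical run of 110 bases that ended 1687 and 850 bases before their 3′ ends. No other pair among the 5 genes shared a 50-base stretch. Reads from that run cannot be told apart between *Cxcl2* and *Cxcl3*.

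On Day 3 all 5 genes were present, and by Days 7 and 14 each was close to the limit of counting. *Cxcl2*, which encodes macrophage inflammatory protein 2, had 1170, 1, and 0 UMIs in the marked spots of the 3 days. These are 660 CPM (UMIs per 1000000 UMIs, 95% interval 623 to 699), 0.225 CPM (0.00570 to 1.25), and no UMI where 3 counts would have been 0.651 CPM. Outside the mark *Cxcl2* had 2860, 1, and 0 UMIs. The fall was therefore seen in both areas of the slides. The level in marked spots was 2933-fold lower on Day 7 than on Day 3, with a counting interval of 525 to 115950 because it rests on 1 UMI. On Day 14 it was 1015-fold lower with 3 counts in place of the 0, and the exact interval allowed a ratio of up to 0.00121.

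*Cxcl5* had 365, 11, and 1 UMIs in marked spots, or 206 (185 to 228), 2.48 (1.24 to 4.43), and 0.217 CPM (0.00549 to 1.21). Outside there were 78, 4, and 1. Its level in marked spots was 83.2-fold lower on Day 7 (45.9 to 168) and 950-fold lower on Day 14 (169 to 37616). *Cxcl3* had 159, 10, and 0 UMIs in marked spots and 354, 8, and 0 outside. In CPM of the marked spots this was 89.7 (76.3 to 105) on Day 3 and 2.25 (1.08 to 4.14) on Day 7. It was 39.9-fold lower on Day 7 (21.1 to 84.7). On Day 14 it was 138-fold lower with 3 counts in place of the 0 (exact ratio up to 0.00902). For *Cxcl3* and *Cxcl5* the counting intervals of the 3 days did not overlap in marked spots, whereas those of *Cxcl2* overlapped on Days 7 and 14.

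*Cxcl1*, which encodes the keratinocyte-derived chemokine KC, was sparse throughout, with 36, 5, and 1 UMIs in marked spots and 23, 4, and 0 outside. Its 20.3 CPM (14.2 to 28.1) on Day 3 was 18.1-fold above Day 7 (7.06 to 58.9), while Days 7 and 14 did not differ beyond counting error (ratio of Day 14 over Day 7 0.193, 0.00407 to 1.72). *Cxcr2* had 38, 1, and 2 UMIs in marked spots and 72, 1, and 2 outside. The Day 3 level of 21.4 CPM (15.2 to 29.4) was 95.3-fold above Day 7 (16.1 to 3860) and 49.4-fold above Day 14 (12.8 to 423). After Day 3 no spot on either slide held more than 1 UMI of any of the 5 genes.

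**Figure D1:**
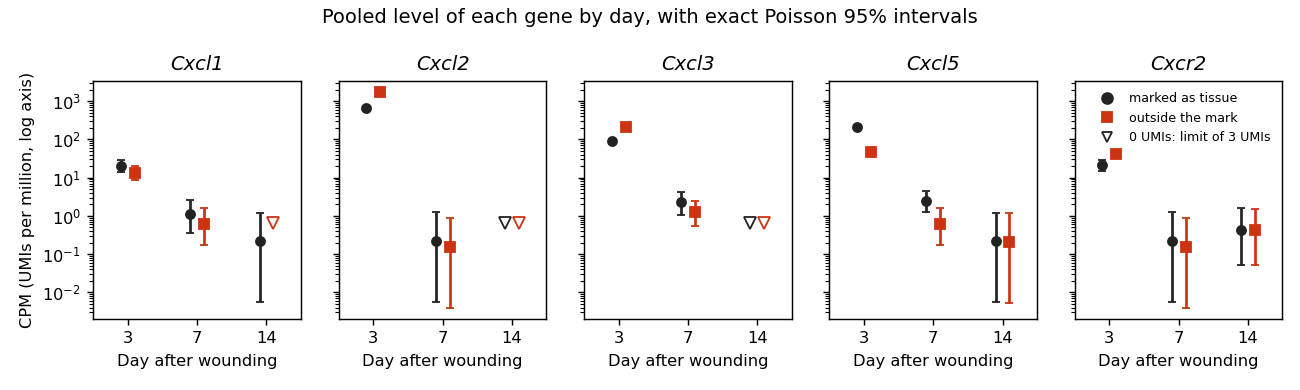
Pooled level of each gene in CPM (log axis) against day after wounding, for spots marked as tissue (circles) and outside the mark (squares). Bars are exact Poisson 95% intervals of 1 section a day, and open triangles stand for 0 UMIs, drawn at the level of 3 UMIs. Every gene was highest on Day 3 in both areas.

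*Cxcl2*, *Cxcl3* and *Cxcl5* passed the minimum of 50 UMIs over both sections that the genome-wide comparison required, and *Cxcl1* and *Cxcr2* did not. All 3 were lower by 2-fold or more on Day 7 than on Day 3, as were 6.49% of the 10541 genes compared, while 8.04% were higher. They also were on Day 14, as were 6.83% of 10955. Ranked by the ratio of Day 7 over Day 3, *Cxcl2* was 4th, *Cxcl5* 12th and *Cxcl3* 19th from the lowest. These ranks describe genes that were chosen for that fall. None of the 5 passed the minimum between Days 7 and 14, where 7.34% of genes were lower and 10.9% higher.

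Neutrophil markers as a list were also lower after Day 3, but unevenly. The summed level of the 10 genes fixed as neutrophil markers was 2183 CPM (2115 to 2253) in marked spots on Day 3, 204 (191 to 218) on Day 7, and 144 (133 to 155) on Day 14. On Day 7, 6 of the 8 markers measured were lower by 2-fold or more. *S100a8* and *S100a9*, the calprotectin subunits, were 46.9-fold and 48.9-fold lower. *G0s2* (1.56-fold lower) and *Mmp9* (1.90-fold lower) were not past 2-fold and made up 608 of the 907 UMIs of the list that day. Single markers spanned 1.13 to 858 CPM on Day 3. *Retnlg* (63 UMIs on Day 3) and *Ly6g* (2 UMIs), named after their values were seen, were at 0 on Day 7. For *Ly6g* the interval of the ratio, 0 to 2.12, included 1. Set against this list, *Cxcl2* went from 302 UMIs per 1000 neutrophil-marker UMIs to 1.10 on Day 7, a 274-fold lower ratio (49.1 to 10843). *Cxcl5* went from 94.3 to 12.1 (7.78-fold lower, 4.30 to 15.7) and *Cxcl3* from 41.1 to 11.0 (3.73-fold lower, 1.97 to 7.92). Without *G0s2* and *Mmp9*, an alternative chosen after seeing the data, the ratio was 101-fold lower for *Cxcl2* (18.1 to 3997) and 2.87-fold lower for *Cxcl5* (1.58 to 5.80), and that of *Cxcl3* no longer differed beyond counting error (1.37-fold lower, 0.728 to 2.92). *Cxcl3* as such was 39.9-fold lower, with an interval (21.1 to 84.7) that overlapped those of *S100a8* (36.1 to 62.0) and *S100a9* (38.9 to 62.2). For *Cxcl1* the values against the whole list were 9.30 and 5.51, which did not differ beyond counting error (1.69-fold lower, 0.660 to 5.51). The 10 macrophage markers summed to 4232, 2619, and 1041 CPM on the 3 days. The part that fewer neutrophils or macrophages had in the fall was not tested.

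The Day 3 slide held nearly all of the UMIs, and there the genes lay in different places. *Cxcl2* was found in 363 of 664 marked spots (54.7%, exact binomial 50.8 to 58.5) with up to 15 UMIs per spot, and in 1032 of 4328 spots outside (23.8%) with up to 79. *Cxcl5* was found in 89 marked spots (13.4%, 10.9 to 16.2), where it reached 36 UMIs, and in 71 spots outside, where it never passed 2. *Cxcl3* was found in 103 marked spots and 246 outside, *Cxcr2* in 33 and 55, and *Cxcl1* in 29 and 22. Thinned to 1000 UMIs per spot, which kept 426 marked spots and left out 238, *Cxcl2* remained in 44.8% (40.0 to 49.7), *Cxcl5* in 9.86% (7.20 to 13.1), *Cxcl3* in 7.04% (4.80 to 9.90) and *Cxcr2* in 1.88% (0.814 to 3.67). The share for *Cxcl1* was 3.05% or 1.17% depending on the random draw. Spots rich in skeletal muscle transcripts were taken as a background. The lowest of them had 15.6% of its UMIs from muscle markers, and whether they lacked cells that make these genes was not tested. There the thinned share was 7.89% for *Cxcl2* (3 of 38 spots, 1.66 to 21.4) and 2.63% for *Cxcl5* (1 of 38, 0.0666 to 13.8), with 0 of 38 for *Cxcl1*, *Cxcl3* and *Cxcr2*, which allows a share of up to 9.25% by the exact interval. The median depths before thinning were 1513 UMIs in all 664 marked spots and 1359.5 in the muscle-rich spots, which had at least 500 UMIs each. The other 468 marked spots of at least 500 UMIs had a median of 2073.

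*Cxcl5* was confined to few of the marked spots. The 10 richest spots held 49.9% of its marked UMIs, against 10.4% for the more abundant *Cxcl2* and 23.3% for *Cxcl3*, which had fewer UMIs. A set of 19 marked spots with 5 or more *Cxcl5* UMIs held 246 of its 365 UMIs (67.4%) in 11.1% of all marked UMIs. Of these 19, 15 formed a single group of touching spots, 4.50 by 2.60 spot pitches across, that lay between 1.73 and 4.36 pitches from the edge of the mark. A pitch is the distance between the centres of neighbouring spots. The richest of them had 36 *Cxcl5*, 6 *Cxcl2*, 3 *Cxcl3*, 2 *Cxcl1* and 0 *Cxcr2* among 22909 UMIs.

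*Cxcl2* was no higher in those *Cxcl5* spots than elsewhere. In the 19 spots it stood at 662 CPM and in the other 501 marked spots of at least 500 UMIs at 655 (ratio 1.01, 0.835 to 1.21). *Cxcl3* was higher there, at 188 against 77.7 CPM (2.42, 1.63 to 3.53), and *Cxcl1* was too, at 61.1 against 15.4 CPM from 12 and 24 UMIs (3.96, 1.81 to 8.24). Neutrophil markers were 1.87-fold higher (1.73 to 2.03), macrophage markers 1.91-fold higher (1.80 to 2.02) and fibroblast markers lower at a ratio of 0.619 (0.603 to 0.635). Chosen the other way, the spots overlapped more. The 83 marked spots with 5 or more *Cxcl2* UMIs held 272 of the 365 *Cxcl5* UMIs, at 489 against 77.6 CPM (6.30-fold, 4.96 to 8.06), and in the 14 with 10 or more *Cxcl2* UMIs *Cxcl5* was 2.51-fold higher (1.87 to 3.32). The threshold of 5 UMIs was set after the map had been seen, and these spots were deep, with a median of 9419 UMIs.

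The spots with the most *Cxcl2* lay outside the tissue mark. There 39 spots with 10 or more *Cxcl2* UMIs held 960 of 2860 UMIs (33.6%) in 4.03% of the UMIs outside, and 23 of them formed a single group of touching spots 1.73 to 6.56 pitches from the nearest marked spot. Its centre was 14.6 pitches from the centre of the *Cxcl5* group. The richest spot had 79 *Cxcl2*, 14 *Cxcl3*, 6 *Cxcr2*, 1 *Cxcl1* and 0 *Cxcl5* among 3400 UMIs. In the 39 spots *Cxcl3* was 31.6-fold higher (22.3 to 45.1) and *Cxcr2* 38.9-fold higher (18.3 to 88.0) than in the other 639 spots outside with at least 500 UMIs. Neutrophil markers were 23.7-fold higher (22.2 to 25.3), macrophage markers 1.28-fold (1.06 to 1.53), and *Cxcl5* 5.35-fold (2.23 to 11.6) from 9 UMIs. *Cxcl3* and *Cxcr2* thus shared these spots, which were chosen for their *Cxcl2* UMIs, with neutrophil markers. The share of all genes past 2-fold in these spots is not given here.

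**Figure D2:**
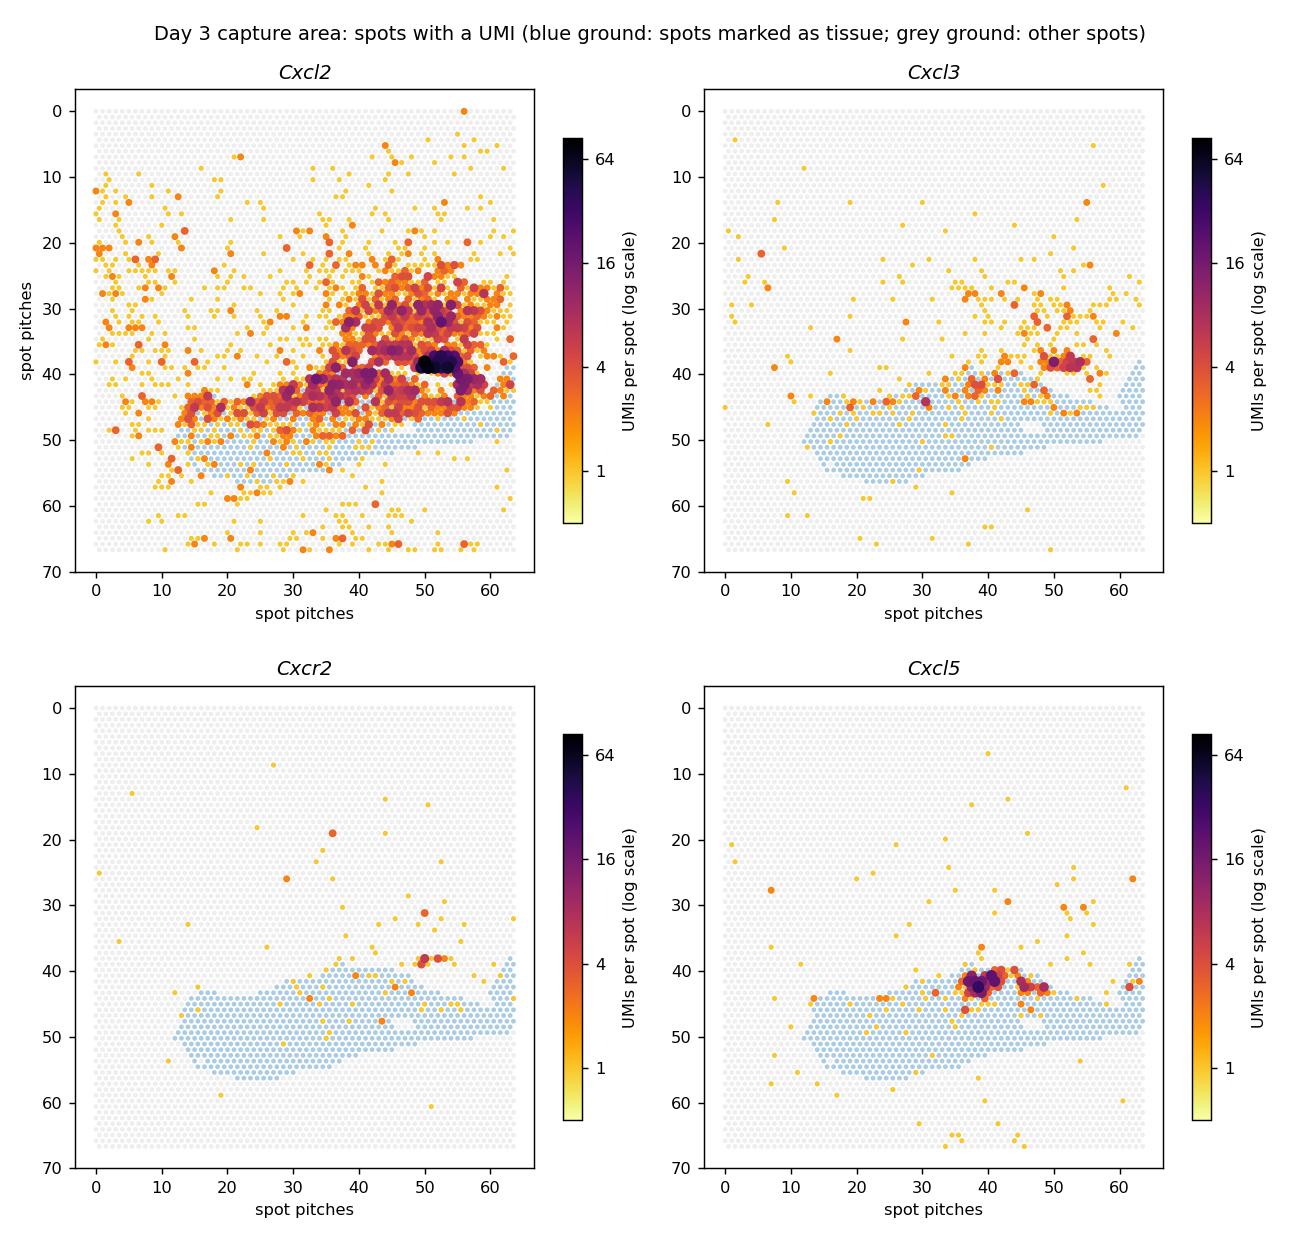
Map of the Day 3 capture area for 4 genes, with both axes in spot pitches, blue ground for spots marked as tissue, grey ground for the other spots, and colour and size for UMIs per spot on a log scale. *Cxcl2*, *Cxcl3* and *Cxcr2* were densest in a group of spots outside the mark, and *Cxcl5* in a group of marked spots 14.6 pitches away.

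Neighbouring spots resembled each other most for *Cxcl5* and *Cxcl2*, which also had the most UMIs in marked spots. Moran's I, which is near 0 when neighbours are unrelated, was 0.471 for *Cxcl5*, 0.416 for *Cxcl2*, 0.164 for *Cxcl3*, 0.145 for *Cxcl1* and 0.0255 for *Cxcr2* over 520 marked spots. After thinning it was 0.308, 0.312, 0.0844, 0.135 and 0.0830. In the same order the genes held 365, 1150, 158, 36, and 35 UMIs in the 520 spots. Few UMIs can lower Moran's I by themselves, so its order was not separated from abundance. Outside the mark the *Cxcl2* level did not fade steadily with distance. It was 589 CPM within 1.5 pitches of the nearest marked spot (491 to 700), 2631 between 3 and 5 pitches (2441 to 2833), 1387 between 5 and 10 (1295 to 1484), and 3029 beyond 20 (2616 to 3489). The last band had 63383 UMIs over 1627 spots and no spot with more than 3 *Cxcl2* UMIs. *S100a9*, a neutrophil calprotectin subunit, went through 607, 3053, 1757, and 4433 CPM in the same bands.

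Across the Day 3 slide, the level outside over that in marked spots was 2.54 for *Cxcl2* (2.38 to 2.72), 2.32 for *Cxcl3* (1.92 to 2.81) and 1.97 for *Cxcr2* (1.31 to 3.00). It was 0.222 for *Cxcl5* (0.172 to 0.285), and for *Cxcl1* it did not differ from 1 beyond counting error (0.665, 0.376 to 1.15). Among 7998 genes compared, 3.40% were higher outside by 2-fold or more and 15.9% were lower. Spots of at least 500 UMIs, an alternative chosen after seeing the data, gave 1.64 for *Cxcl2*, 1.26 for *Cxcl3* (1.003 to 1.59) and 0.145 for *Cxcl5*, and left *Cxcr2* within counting error of 1 (1.36, 0.826 to 2.24). Neutrophil markers as a list were 2.19-fold higher outside (2.11 to 2.28), muscle markers 2.12-fold higher (2.10 to 2.14) and macrophage markers 2.66-fold lower (2.54 to 2.78).

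**Figure D3:**
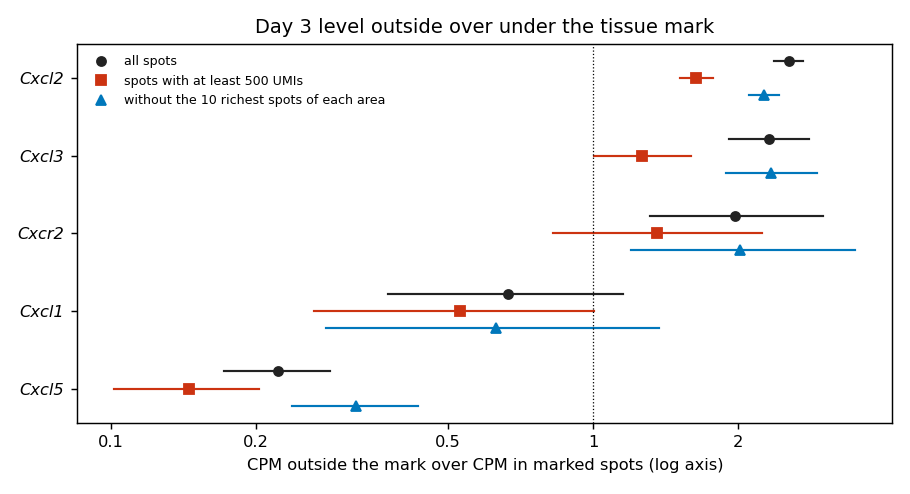
Ratio of each gene's Day 3 level outside the mark to that in marked spots (log axis, dotted line at 1), with exact conditional 95% intervals, for all spots, for spots of at least 500 UMIs, and without the 10 richest spots of each area. *Cxcl2* stayed above 1 and *Cxcl5* below 1 in the 3 versions, and *Cxcl3* moved from 2.32 to 1.26 in the deeper spots.

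Counted against *Cxcl2*, *Cxcl5* and *Cxcl1* differed most between the areas. *Cxcl3* had 13.6 UMIs per 100 *Cxcl2* UMIs in marked spots and 12.4 outside (ratio 0.911, 0.753 to 1.11). *S100a9* had 130 and 127 (0.975, 0.918 to 1.04), and *Trem1*, a receptor that amplifies neutrophil responses, had 12.0 and 12.7 (1.06, 0.870 to 1.30). *Cxcr2* had 3.25 and 2.52 (0.775, 0.516 to 1.18). The intervals of these 4 ratios included 1, and that of *Cxcr2* was wide. In spots of at least 500 UMIs those of *Cxcl3* (0.773, 0.613 to 0.974) and *S100a9* (0.929, 0.866 to 0.997) no longer did. *Cxcl5* had 31.2 and 2.73 per 100 *Cxcl2* UMIs (0.0874, 0.0676 to 0.112), and *Cxcl1* had 3.08 and 0.804 (0.261, 0.148 to 0.453). *Il1b*, which encodes interleukin-1 beta, had 40.0 and 46.3 (1.16, 1.04 to 1.29).

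Spots were also chosen by marker genes, none of which is among the 5. Among 520 marked Day 3 spots of at least 500 UMIs, the 10% richest in neutrophil markers (52 spots) had *Cxcl2* at 2940 CPM against 545 in the rest (5.39-fold, 4.65 to 6.23). *Cxcl3* was 4.87-fold higher there (3.16 to 7.29) and *Cxcl5* 3.14-fold (2.27 to 4.27). All 3 were past 2-fold, as were 8.41% of 5637 genes. *Cxcl1* with 5 UMIs (3.35, 1.02 to 8.69) and *Cxcr2* with 8 (6.15, 2.42 to 13.9) were under the minimum of 50 UMIs. The chosen spots were shallower, with a median of 1180 UMIs against 2082.5.

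Outside the mark all 5 ratios were larger than in marked spots, and the intervals of *Cxcl2*, *Cxcl3*, *Cxcl5* and *Cxcr2* lay apart from those there. The chosen spots were unlike in the 2 areas. The lowest share of neutrophil-marker UMIs in a chosen spot was 1.82% outside and 0.673% in marked spots. What this difference in cut adds to the larger ratios was not tested. The 68 of 674 spots richest in neutrophil markers held 1074 of the 1384 *Cxcl2* UMIs (77.6%), at 14450 against 255 CPM (56.7-fold, 49.9 to 64.6). *Cxcl3* was 52.4-fold higher (35.6 to 78.9), *Cxcr2* 55.3-fold (24.4 to 141), *Cxcl1* 16.4-fold (4.90 to 54.7) and *Cxcl5* 12.7-fold (6.31 to 25.0). In these spots 17.2% of 3340 genes were past 2-fold. *Cxcr2* (27 UMIs in the chosen spots and 8 in the rest), *Cxcl5* (17 and 22) and *Cxcl1* (7 and 7) were under the minimum of 50 UMIs. The interval of *Cxcl5* lay below those of *Cxcl2* and *Cxcl3* and met that of *Cxcr2*. Median depths were 758.5 UMIs in the chosen spots and 1157 in the rest.

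Macrophage-rich marked spots showed smaller differences, at 1.29-fold for *Cxcl2* (1.08 to 1.54) and 1.60-fold for *Cxcl5* (1.18 to 2.14). The *Cxcl5* value turned to 0.540 in the 5% richest spots and rose to 3.64 in the 20% richest, so no direction is given for it. Keratinocyte-rich spots had *Cxcl2* at 1.23-fold (1.07 to 1.41) and *Cxcl5* at 0.741 (0.545 to 0.992). Fibroblast-rich marked spots held 7 of the 365 *Cxcl5* UMIs, a ratio of 0.0937 (0.0374 to 0.195), while *Cxcl2* was at 0.702 there (0.587 to 0.836). Over all 520 marked spots the Pearson r with fibroblast markers was nonetheless positive, at 0.39 for *Cxcl2* and 0.14 for *Cxcl5*. That of *Cxcl5* with keratinocyte markers was 0.16. Muscle-rich spots were low in both, at 0.212 for *Cxcl2* (0.105 to 0.381) and 0.0603 for *Cxcl5* from 1 UMI (0.00152 to 0.338). Past 2-fold higher were 5.93% of genes in macrophage-rich, 6.83% in keratinocyte-rich, 3.57% in fibroblast-rich and 9.05% in muscle-rich spots, and none of *Cxcl2*, *Cxcl3* and *Cxcl5*. Outside the mark, keratinocyte-rich spots had *Cxcl2* 2.44-fold higher (2.07 to 2.85), where 19.8% of genes were past 2-fold, and fibroblast-rich spots had it at 0.333 (0.229 to 0.467). *Cxcl5* in those fibroblast-rich spots rested on 6 UMIs (2.40, 0.823 to 5.81), an interval above that in marked spots. Of the 68 keratinocyte-rich spots outside, 16 were also among the neutrophil-rich ones, as were 9 of the 52 in marked spots.

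**Figure D4:**
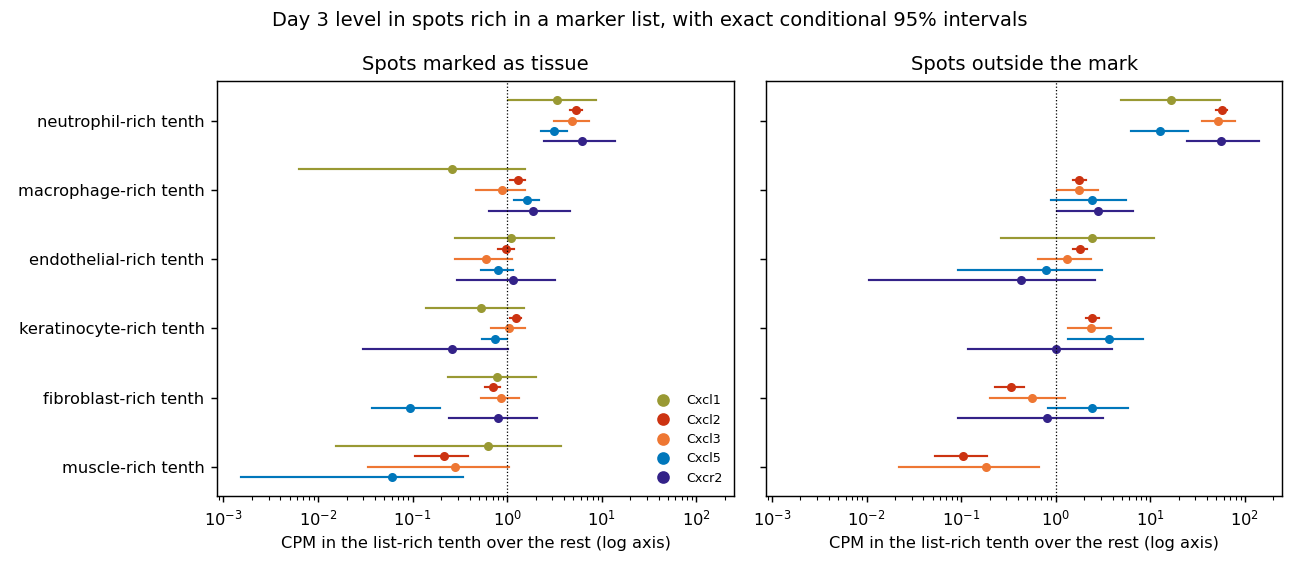
Day 3 level of each gene in the 10% of spots richest in a marker list over the remaining spots of at least 500 UMIs (log axis, dotted line at 1), in marked spots (left) and outside the mark (right). Lines are exact conditional 95% intervals and pairs with 0 UMIs on a side are left out. In neutrophil-rich spots *Cxcl2* was 5.39-fold higher in marked spots and 56.7-fold higher outside. The cut differed, at 0.673% of a spot's UMIs from neutrophil markers in marked spots and 1.82% outside.

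The genes that varied with the ligands from spot to spot differed between *Cxcl2* and *Cxcl5*. Over the 520 marked spots, which share a library and differ in depth, the 5 genes with the highest Pearson r with *Cxcl2* were *Srgn* (0.62), *H2-K1* (0.52), *S100a9* (0.51), *S100a8* (0.50) and *Actb* (0.46). *Srgn* encodes the proteoglycan serglycin of leukocyte granules. For *Cxcl5* they included *Timp1* (0.52), *Arg1* (0.38), *Sbno2* (0.37) and *S100a8* (0.36). *Timp1* encodes an inhibitor of metalloproteinases and *Arg1* arginase 1. Outside the mark, over 674 spots, *Timp1* and *Arg1* had r of 0.10 and 0.12 with *Cxcl5*, and *S100a8*, *S100a9* and *Srgn* had 0.70, 0.69, and 0.68 with *Cxcl2*. For the sparser *Cxcl3* and *Cxcl1* the highest values in marked spots were 0.30 with *S100a8* and 0.26 with *Rarres2*, which are weak. The pair *Cxcl2* and *Cxcl3* had r of 0.24 in marked spots and 0.55 outside, and *Cxcl2* and *Cxcl5* had 0.27 and 0.20.

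Marked spots with the receptor held *Cxcl2* and *Cxcl3* more often than those without it, whereas for *Cxcl5* and *Cxcl1* the intervals of the shares overlapped. Of 30 marked spots with *Cxcr2* and at least 500 UMIs, 28 (93.3%, 77.9 to 99.2) also held *Cxcl2*, against 65.3% of the 490 without it. Median depths of the spots with and without *Cxcr2* were 2284 and 1960 UMIs. *Cxcl3* was present in 15 of the 30 (31.3% to 68.7%) against 17.8% of the others, *Cxcl5* in 10 (17.3% to 52.8%) against 16.1% (13.0% to 19.7%), and *Cxcl1* in 2 (0.818% to 22.1%) against 5.51%. *Cxcl5* spots held *Cxcl2* in 81 of 89 cases (91.0%, 83.1 to 96.0) and *Cxcr2* in 10, but they were deeper than the others, with medians of 3776 and 1801 UMIs.

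Cytokines that induce these ligands took different courses. Of 12 genes in the list, 3 passed the minimum of 50 UMIs, and all 3 were lower by 2-fold or more on Day 7, as were 6.49% of all genes compared. Their median log2 ratio was -3.98, against 0.04 for all genes compared. *Il1b* had 468, 14, and 21 UMIs in marked spots and was 83.8-fold lower on Day 7. *Tnf*, the gene of tumour necrosis factor, had 44, 7, and 17 (15.8-fold lower). *Il36g*, an epidermal interleukin-1 family cytokine, had 34, 31, and 89 (2.75-fold lower on Day 7), and on Day 14 its level was 1.01 times that of Day 3. Below the minimum, *Osm* had 42, 1, and 1 UMIs, *Il6* 6, 2, and 2, and *Csf3* 5, 0, and 0, while *Il17a* had no UMI in marked spots on any day. *Il36a*, another epidermal cytokine, went the other way, with 0, 17, and 24 UMIs. With 3 counts in place of the 0 it was 2.26-fold higher on Day 7 and 3.07-fold higher on Day 14. The lower limits of the exact intervals were 1.65 and 2.31. *Il1a* had 8, 17, and 31 UMIs (4.51, 3.83, and 6.72 CPM) and *Lif* 9, 13, and 10 (5.08, 2.93, and 2.17 CPM), which did not differ from Day 3 beyond counting error on Day 7. Among genes of NF-kappaB feedback and message decay, 3 of the 9 that passed the minimum were lower on Day 7 (6.49% of all genes), among them *Nfkbia* (2.33-fold) and *Zfp36* (2.80-fold). The other 6 ranged from a ratio of 0.628 to 1.67, with *Nfkb1* at 1.57 (1.17 to 2.14). On Day 14 none of the 10 measured was past 2-fold, where 6.83% of all genes were lower and 14.4% higher.

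Other receptors of neutrophil recruitment and activation were lower too, 3 of the 4 measured by 2-fold or more on Day 7 (6.49% of all genes) and 3 of 4 on Day 14 (6.83%). The count includes *Trem1*, an activating receptor that is not a chemoattractant receptor. *Trem1* had 140, 0, and 0 UMIs in marked spots, 117-fold lower on Day 7 with 3 counts in place of the 0 (exact ratio up to 0.0107). *C5ar1*, the receptor for complement C5a, had 266, 178, and 50 (3.75-fold lower on Day 7 and 13.8-fold on Day 14). *Fpr1*, a formyl peptide receptor, had 25, 2, and 1. Among other CXC receptors, 0 of the 3 measured were past 2-fold on Day 7 (6.49% of all genes lower) and 1 was lower on Day 14 (6.83%). *Ackr1*, an atypical receptor that carries chemokines across vessel walls, had 45, 59, and 68 UMIs, or 25.4, 13.3, and 14.7 CPM (1.91-fold lower on Day 7, 1.27 to 2.87, and 1.72-fold lower on Day 14, 1.15 to 2.55). *Cxcr1* had no UMI in marked spots on any day. Of the 8 leukocyte adhesion genes 5 were measured and 2 were lower on Day 7 (6.49% of all genes), *Itgb2* (2.55-fold) and *Itgam* (5.20-fold), which encode the chains of the integrin Mac-1.

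The neighbours in the chromosome 5 cluster did not share a single course. *Pf4*, the platelet factor 4 gene that lies between *Cxcl5* and *Cxcl3*, had 901, 505, and 188 UMIs in marked spots and was 4.47-fold lower on Day 7. Its Day 3 level outside over that in marked spots was 0.266 (0.229 to 0.307), on the same side as *Cxcl5*. *Ppbp*, a platelet gene whose product also binds the receptor CXCR2, had 19, 0, and 7 UMIs, and *Cxcl15* had none on any day. CXC ligands that act on other receptors took other courses. *Cxcl9* and *Cxcl10*, ligands of CXCR3 on T cells, had 9 and 10 UMIs in marked spots on Day 3 and 78 and 79 on Day 14, at levels 3.33-fold and 3.04-fold higher. *Cxcl14*, a chemokine of epithelia, went from 135 to 954 UMIs (2.72-fold higher). These were 3 of the 6 other CXC ligands measured on Day 14, and 14.4% of all genes compared were higher by 2-fold or more. *Cxcl12*, the stromal ligand of CXCR4, was 2.93-fold lower on Day 7 and 5.91-fold lower on Day 14.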

How the data were processed

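Per the labels, the authors made the tables with Space Ranger 1.3.0 on mm10. Sources used here do not name the gene annotation. The deposited tables hold raw UMI counts per gene and spot for 1 section each on Days 3, 7, and 14, with spot positions and the tissue mark. The members, lists and comparisons were chosen with earlier results of these data known. Counts were summed over marked or unmarked spots and divided by the total (CPM). CPM carry exact Poisson intervals, shares Clopper-Pearson intervals and ratios exact conditional binomial intervals, all at 95%. With 1 section a day no test was possible, and a gene with at least 50 UMIs over both sections was called at a 2-fold ratio. Where a count was 0, bounds used a floor of 3 counts per section. These bounds leave out counting error in the other section. List-rich spots were the upper 10% by the share of UMIs from a list, among spots of at least 500 UMIs. Pearson r and Moran's I used log1p of UMIs per 10000, over partner genes with at least 100 UMIs. Named genes were the 5 members, the genes of 4 lists of ligands, cytokines and receptors, the 4 most abundant genes of each further list, and the 5 genes with the highest r with each ligand, of which 1 is not reported here. *Il36g* was matched through its older symbol, and *Cxcl11* was not used here. Ratio intervals and thinning were tested on simulated data. Tools were Python 3.11.15 with numpy 2.4.6, scipy 1.17.1 and pandas 2.3.3, and for other scalings edgeR 4.0.16 and DESeq2 1.42.0.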

Additional observations from a re-analysis of the deposited data

Results flagged for a closer look

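Some genes around the chemokines lay on opposite sides of the tissue mark on different days. Each value is the CPM outside the mark over that in marked spots, the differences between days were not tested, and there was 1 section per day. *Pf4* was at 0.266 on Day 3, 0.473 on Day 7, and 1.61 on Day 14. *Cxcl14* was at 0.632, 1.29, and 0.653 on the 3 days. *Il1a* was at 2.73 on Day 3 and 0.505 on Day 14, and *Tnf* at 1.84 and 0.230. These last values rest on few UMIs, and their intervals are not given here. In marked spots *Il1a* had 8 UMIs on Day 3 and *Tnf* 17 on Day 14.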

How the results depend on the processing

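No paired analysis was possible because each day had 1 section, and for the same reason no section could be left out. Of 256 values recomputed under another setting, 199 stayed within the counting interval of the value reported or, for counts, within 1.5 times, 56 moved beyond it and 1 reversed. For ratios within a day and per neutrophil-marker UMI, a change of side was counted as a reversal only where the reported interval excluded 1. The cause of each move was not tested. The *Cxcl5* ratio in macrophage-rich marked spots reversed from 1.60 to 0.540 in the 5% richest spots and was 3.64 in the 20% richest. In neutrophil-rich spots the 5% and 20% cuts gave 6.70 and 3.73 for *Cxcl2* and 2.07 and 4.37 for *Cxcl5*, and in keratinocyte-rich spots *Cxcl5* was at 0.470 in the 20% richest and 0.518 in spots of at least 1000 UMIs. The falls of the members kept their direction. Over all spots of a slide the *Cxcl3* level was 89.4-fold lower on Day 7, and the Day 14 bounds were 459-fold for *Cxcl3* and 3605-fold for *Cxcl2*. TMM factors and DESeq2 size factors gave *Cxcl2* bounds of 1086-fold and 1111-fold. Day 3 outside over marked was 1.64 (*Cxcl2*), 1.26 (*Cxcl3*) and 0.145 (*Cxcl5*) in spots of at least 500 UMIs, and 2.26 (*Cxcl2*) and 0.322 (*Cxcl5*) without the 10 richest spots of each area, both chosen after seeing the data. Without *G0s2* and *Mmp9* in the neutrophil list, also chosen after seeing the data, the Day 7 over Day 3 ratio per neutrophil-marker UMI was 1.61 (*Cxcl1*), 0.728 (*Cxcl3*) and 0.349 (*Cxcl5*). That of *Cxcl1* was 0.592 with the whole list, on the other side of 1, and both intervals included 1. Thinned to 500 UMIs the shares were 0.577% (*Cxcl1*), 34.6% (*Cxcl2*) and 5.96% (*Cxcl5*). Thinned to 2000 they were 55.8% (*Cxcl2*), 11.2% (*Cxcl3*), 17.8% (*Cxcl5*) and 3.88% (*Cxcr2*), and a second random draw gave 1.17% for *Cxcl1*. The r of *Cxcl2* and *Cxcl3* was 0.16 after thinning and 0.55 outside the mark.

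Counts of genes past 2-fold depended on the minimum. Lower and higher genes on Day 7 against Day 3 numbered 2669 and 3457 with no minimum beyond 1 UMI, 329 and 347 with a minimum of 200, and 333 and 264 when the interval had to lie past 2-fold. On Day 14 against Day 3 they numbered 2595 and 4352, 358 and 632, and 407 and 510. On Day 14 against Day 7 they numbered 2832 and 3424, 479 and 597, and 434 and 669. The main counts were 684 and 847, 748 and 1573, and 862 and 1283.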
